A study of Mus musculus with 18 samples.

Results

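The cytosolic ribosomal protein genes are the genes whose proteins, with ribosomal RNA, make up the small and the large subunit of the ribosome in the cytoplasm. They were taken by symbol: names of the Rpl or Rps kind followed by a number, together with Rplp0, Rplp1, Rplp2 and Rpsa, without the Rps6k kinases, and only from probe sets annotated to a single gene. This gave 49 genes of the 18193 measured in this way, 23 of the small and 26 of the large subunit. Of the 49, 6 are paralogues of another ribosomal protein gene (Rpl3l, Rpl7l1, Rpl22l1, Rpl39l, Rps27l and Rps4l). The RefSeq table holds 84 protein-coding genes of these names. A further 28 genes of the rule, among them Rplp1, Rpl3 and Rpl24, lay only on probe sets that name several genes, mostly numbered pseudogenes, so they are described as a set and not by gene. The rule by symbol used no measured value, though the genes were chosen with earlier results of these data known. Where a gene had several probe sets, the one with the widest interquartile range over the 18 arrays was kept.

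The arrays measured retina RNA from male C57BL6/J mice that were 2 months old. Eyes received an intravitreal injection of BSS (the control), of DEX (dexamethasone) or of TAA (triamcinolone), and retinas were taken at day 7 or at day 30, which gives 6 groups of 3 biological replicates. All groups share the injection itself, no uninjected retina is among the 18 samples, and the labels give neither the doses nor whether one array holds one retina or several. Every value is a log2 value relative to the median of the 18 arrays for that probe set, so 0 is the median array, 1 unit is a doubling, and no expression level can be read from it. For the same reason the retina label could not be checked by the level of rod markers, and genes cannot be ranked by abundance. In a whole retina, a lower value from fewer cells of a type and one from less RNA per cell cannot be told apart.

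Ribosomal proteins are made in matched amounts, and their mRNAs are among the most abundant in most cells. Nearly all of these mRNAs start with a 5′ terminal oligopyrimidine tract (TOP), through which growth signalling by mTOR sets their translation. The small subunit decodes the mRNA, and the large subunit joins the amino acids. Dexamethasone and triamcinolone both act through the glucocorticoid receptor. Several members are known for more than their place in the ribosome: Rps6 is the classic substrate of the S6 kinases, Rplp0 and Rplp2 form the stalk that recruits elongation factors, Rpsa is also known as the laminin receptor, and Rpl11 binds Mdm2 and so links ribosome assembly to p53.

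Promoters of this gene family are short and compact, and the RefSeq table (GRCm38.p6) held 51 windows for 43 of the 49 genes, each window running from 250 bases before to 50 bases after a gene's start. Pieces of 6 of them, 100 bases before the start and 20 bases from it, are shown because these genes lay at both ends of the values on the array that stands apart below. By the probe sets kept, the first 4 (Rpl37a, Rpl27, Rps15 and Rps3a1) are the lowest there among genes with a single window. By the same probe sets, Rpl12 and Rpl41 are among the highest. Capitals mark matches to the motifs searched.
Rpl37a (chr1:72711160-72711279, plus strand): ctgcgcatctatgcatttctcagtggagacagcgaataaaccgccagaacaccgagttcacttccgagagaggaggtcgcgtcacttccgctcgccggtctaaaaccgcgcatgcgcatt
Rpl27 (chr11:101442145-101442264, plus strand): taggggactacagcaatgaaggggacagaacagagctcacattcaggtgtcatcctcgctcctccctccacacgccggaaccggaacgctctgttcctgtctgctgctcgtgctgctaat
Rps15 (chr10:80292331-80292450, plus strand): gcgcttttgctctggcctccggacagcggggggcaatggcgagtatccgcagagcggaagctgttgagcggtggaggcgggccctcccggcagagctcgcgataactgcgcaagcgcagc
Rps3a1 (chr3:86142649-86142768, minus strand): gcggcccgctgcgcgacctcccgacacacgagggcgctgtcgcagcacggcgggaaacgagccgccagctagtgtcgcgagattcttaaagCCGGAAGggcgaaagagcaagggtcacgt
Rpl12 (chr2:32961612-32961731, plus strand): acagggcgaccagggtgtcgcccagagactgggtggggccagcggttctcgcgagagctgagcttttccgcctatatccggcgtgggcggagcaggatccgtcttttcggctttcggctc
Rpl41 (chr10:128549149-128549268, minus strand): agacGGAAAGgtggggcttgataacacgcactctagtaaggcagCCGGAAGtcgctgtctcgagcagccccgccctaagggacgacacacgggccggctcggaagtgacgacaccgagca

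Matches to 5 motifs were counted on both strands over the whole windows of 300 bases. CCGGAAG, the core bound by ETS factors such as GABP, was in 41.2% of the 51 windows and in 8.86% of all 32851 windows. CTTTCC, a pyrimidine-rich stretch like that at many starts of TOP mRNAs, was in 45.1% against 26.6%. Counted on both strands and anywhere in a window, it does not measure TOP starts. TATAA was in 27.5% against 24.9%, and CACGTG, the E-box bound by Myc, in 9.80% against 7.15%. The palindromic glucocorticoid response element, AGAACA and TGTTCT with 3 free bases between them, was in 0 of the 51 windows and in 0.00913% of all windows (3 windows). Read on the other strand CTTTCC is GGAAAG, which shares letters with CCGGAAG, but neither holds the other. In the pieces shown, the ETS core occurs in a gene from the low end (Rps3a1) and in one from the high end (Rpl41), while Rpl37a, Rpl27, Rps15 and Rpl12 carry no match in these 120 bases. Rpl41 is at the high end only by its kept probe set (0.20 on TAA day 30 replicate 2). Its other probe sets read -0.04, -0.61 and -0.71 there. These matches describe the letters only.

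Before any comparison, 1 array has to be described. On TAA day 30 replicate 2 the median of the 49 genes was -0.60, while on the 17 other arrays it lay between -0.11 and 0.12. There, 40 of the 49 genes were below 0, and 33 of 49 (67.3%) had their lowest value of all 18 arrays, as did 17.4% of all genes. A value below -0.2 was found for 65.3% of the 49 genes and for 26.6% of all genes. The small subunit genes had a median of -0.60 on this array, the large subunit genes -0.64, and the 6 paralogues -0.15.

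**Figure D1:**
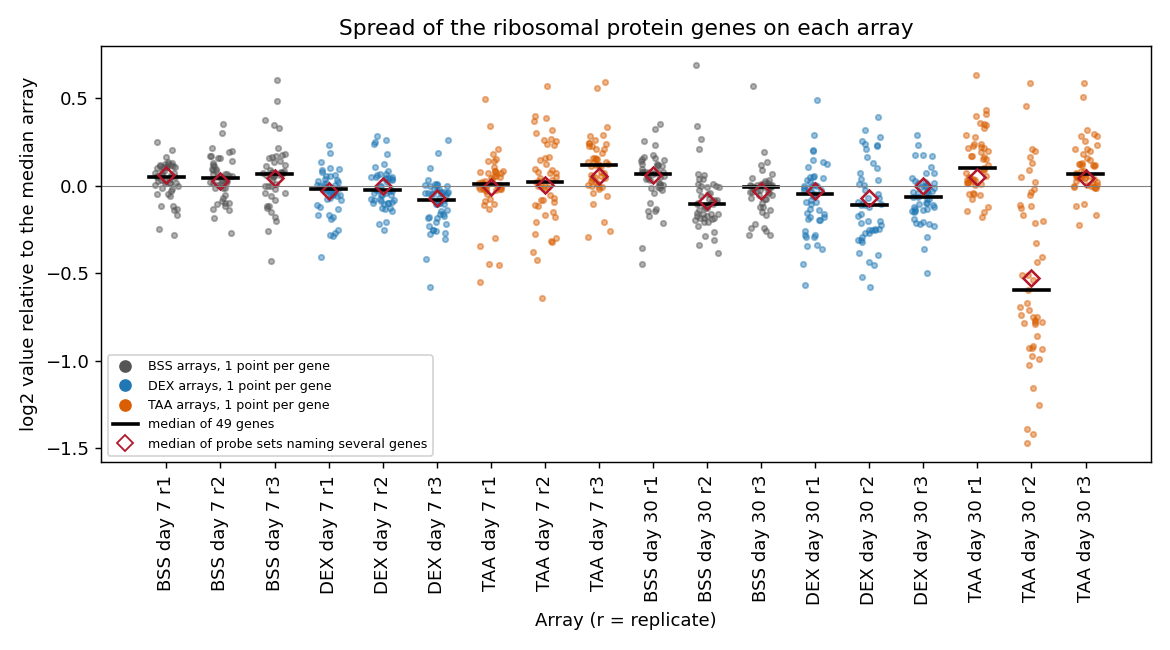
Log2 value of each of the 49 ribosomal protein genes (points, coloured by treatment) on each of the 18 arrays, relative to the median array; black lines are the medians of the 49 genes and open diamonds the medians of the 110 probe sets that name a ribosomal protein gene with other genes. On TAA day 30 replicate 2 both medians, -0.60 and -0.53, lie below those of the 17 other arrays.

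Other measures moved on the same array, and their part in these low values was not tested. The difference between the 3′ and the 5′ control probe sets of Actb, a sign of RNA length, was -0.46 there and between -0.17 and 0.14 on the others, while that of Gapdh was -0.09, inside the range of the others (-0.16 to 0.28). Both are 3′ minus 5′ values, so -0.46 means a lower 3′ signal beside the 5′ signal than on the other arrays. The SD over all genes was 0.376 on this array, but it was 0.378 on TAA day 7 replicate 2, where the 49 genes had a median of 0.02. The list medians of rod markers (-0.35) and of ganglion cell markers (-0.69) were also the lowest of the 18 arrays, while those of Müller glia (-0.07) and of microglia and leukocytes (0.05) lay within the range of the others. The comparisons that hold this array are given with and without it. It also enters the shared estimate of the spread in the comparisons that do not hold it, so counts at an unadjusted p under 0.05 are given both ways there too. Values of a single gene are those of its kept probe set unless another is named.

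On the other arrays the medians moved little. At day 7 they were 0.051, 0.044 and 0.066 on the BSS arrays, -0.021, -0.026 and -0.084 on the DEX arrays, and 0.010, 0.023 and 0.116 on the TAA arrays. The DEX arrays thus lay below both other groups without overlap. At day 30 they were 0.067, -0.102 and -0.008 on the BSS arrays, -0.047, -0.113 and -0.063 on the DEX arrays, and 0.098, -0.596 and 0.065 on the TAA arrays. Here the BSS arrays spanned the whole range of the DEX arrays but for the lowest of these. The spread of the 49 genes between replicates, as the median SD over genes, was 0.065 in BSS day 7, 0.083 in DEX day 7, 0.123 in TAA day 7, 0.123 in BSS day 30, 0.121 in DEX day 30 and 0.417 in TAA day 30. Over all genes these SDs lay between 0.108 and 0.184.

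In the large subunit the lowest values on TAA day 30 replicate 2 belonged to Rpl37a, a zinc-binding protein of the large subunit, at -1.47, to Rpl22, which is needed for αβ T cell development in mice, at -1.42, and to Rpl27 at -1.39. Rpl37a measured 0.12, 0.02 and 0.08 on the BSS day 7 arrays, -0.13, -0.22 and -0.04 with DEX at day 7, and -0.02, -0.17 and 0.33 with TAA at day 7. At day 30 it measured 0.23, 0.06 and 0.13 with BSS, -0.06, -0.26 and -0.12 with DEX, and 0.40, -1.47 and 0.26 with TAA. Rpl37a thus had its highest and its lowest value in the same group, TAA day 30, and its DEX arrays lay below its BSS arrays at both days. Its other probe sets shared the DEX part only partly. Their means differed by 0.01 and -0.14 at day 7 and by -0.29 and -0.19 at day 30. The groups overlapped on the first at day 7 and on the second at day 30. Rpl22 showed the same contrast within TAA day 30, with 0.28 and 0.05 on replicates 1 and 3 against -1.42, and it stayed between -0.14 and 0.28 on the 17 other arrays. Its other probe sets read -1.41 and 0.28 on that array. Rpl27, with 0.03 and 0.12 beside -1.39, stayed between -0.25 and 0.13 on those arrays.

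In the small subunit Rps15, which sits near the decoding site, was the lowest on that array. Its values were 0.07, 0.07 and 0.06 in BSS day 7, 0.01, -0.10 and -0.10 in DEX day 7, 0.08, -0.43 and 0.16 in TAA day 7, 0.12, -0.31 and -0.01 in BSS day 30, -0.45, -0.52 and -0.30 in DEX day 30, and 0.43, -1.25 and 0.18 in TAA day 30. Rps15 was low on all 3 DEX day 30 arrays as well, although the BSS day 30 group overlapped them through replicate 2. Rps14, on the platform of the small subunit, reached -0.97 on TAA day 30 replicate 2 and 0.36 on replicate 1. Rps3a1 reached -1.16 but stayed between -0.11 and 0.11 on all 17 other arrays. Rps4l, a paralogue of the X-linked Rps4x, measured 0.63, -0.75 and 0.29 on the 3 TAA day 30 arrays.

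The stalk proteins and Rpsa followed the same pattern. Rplp0 measured 0.20, -0.91 and 0.16 on the TAA day 30 arrays, and its 17 other values lay between -0.29 and 0.39. Rplp2 measured 0.17, -0.86 and 0.03, and Rpsa 0.09, -0.92 and 0.00. The other probe set of Rpsa did not share this, with 0.05, 0.00 and 0.07. Rpl38, whose loss causes the Tail-short mouse with its skeletal defects, measured 0.04, -0.79 and -0.01. In each of these 4 genes replicate 2 was the lowest of the 18 arrays and the other two TAA day 30 replicates were at or above -0.01.

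A minority of genes did not share the low value. On TAA day 30 replicate 2, 14 of the 49 genes lay within 0.2 of 0, and 3 lay above 0.2. These 3 were Rps24 at 0.59, Rpl12, which forms the base of the stalk, at 0.46, and Rps19 at 0.21. Rps24 and Rps19 are both genes mutated in Diamond-Blackfan anaemia, which is background and was not tested as a trait of these exceptions. For Rps24 the high value is that of the kept probe set, while others read as low as -1.55. The narrowest genes over all 18 arrays were Rps26 (range 0.30), Rps16 (0.31), Rps2 (0.37), Rpl39 (0.40), Rpl8 (0.41) and Rpl37 (0.44), all single-probe-set genes. The widest were Rpl37a (1.87), Rpl22 (1.69), Rps15 (1.68), Rpl27 (1.52), Rps4l (1.38) and Rps14 (1.33). This order rests largely on TAA day 30 replicate 2: without it their ranges were 0.65, 0.42, 0.96, 0.38, 1.02 and 0.65, and the widest genes over the 17 arrays were Rps3 (1.21), Rpl41 (1.13), Rps24 (1.13), Rps20 (1.10) and Rps25 (1.08).

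**Figure D2:**
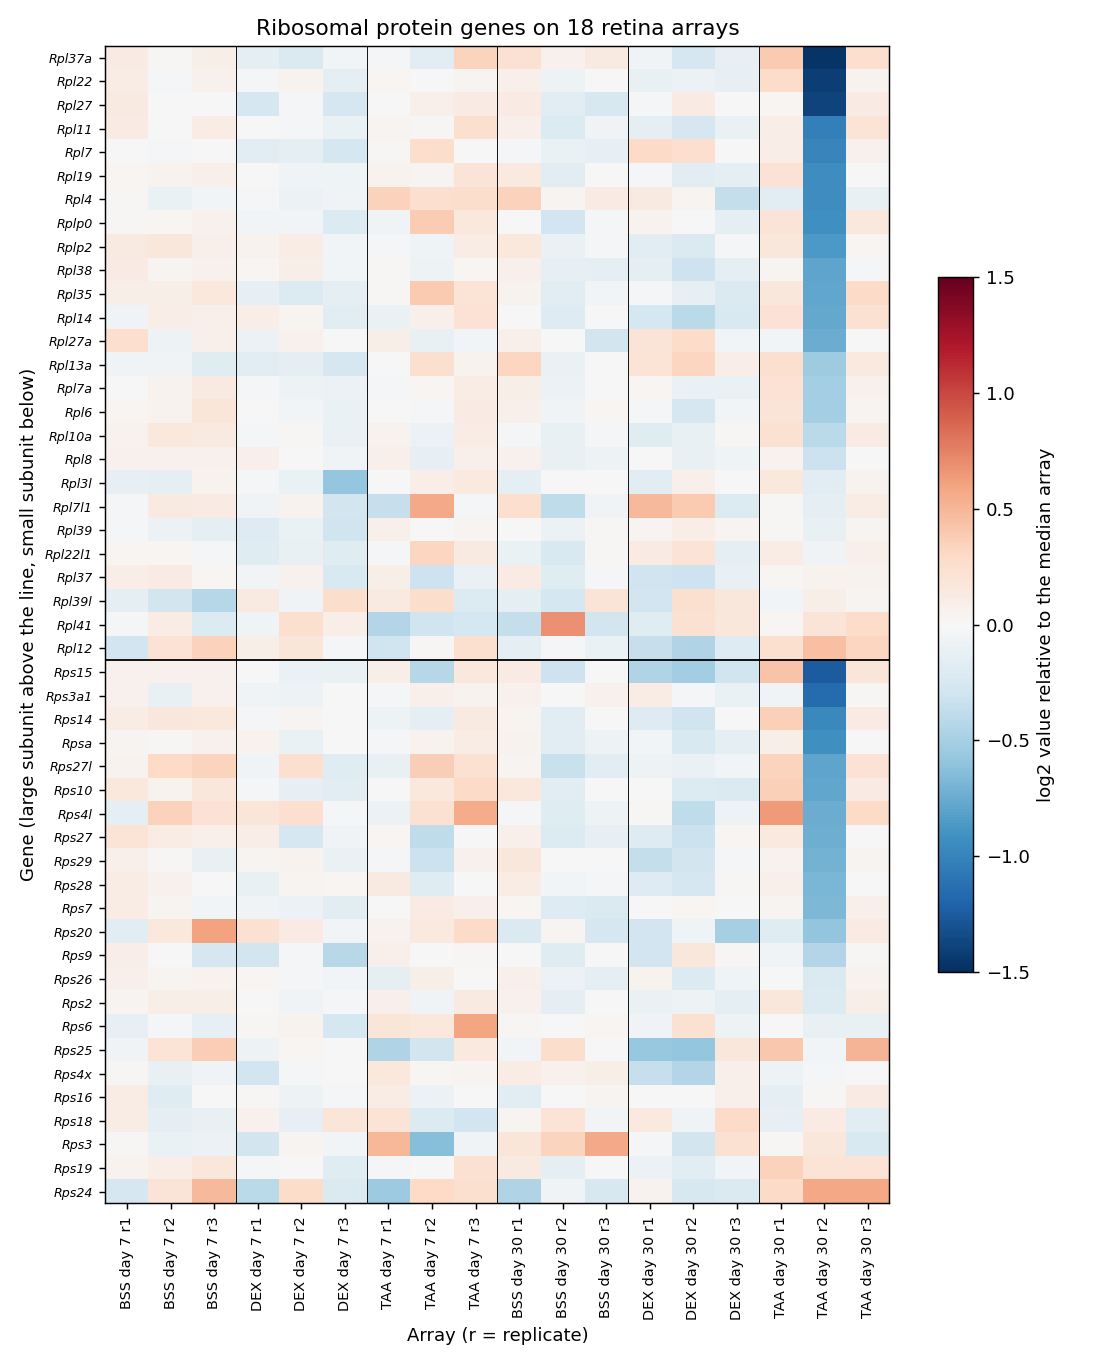
Log2 value relative to the median array (colour, blue lower and red higher) of the 49 ribosomal protein genes (rows, large subunit above the line and small subunit below, each ordered by the value on TAA day 30 replicate 2) on the 18 arrays (columns). The column of TAA day 30 replicate 2 runs from -1.47 for Rpl37a to 0.59 for Rps24, and 40 of its 49 cells are below 0.

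The genes varied together in part. The Pearson correlation of each gene with the median of the other 48 had a median of 0.79 over the 18 arrays, against 0.02 for all other genes with the median of the 49, and 22 genes exceeded 0.8. Without TAA day 30 replicate 2 the median was 0.54 over 17 arrays, against 0.03 for all other genes, and 9 genes exceeded 0.8. These correlations describe arrays that share processing. Because the genes vary together, counts of them in a comparison are not counts of separate observations. Rpl11 (0.98 and, without that array, 0.93), Rpl19 (0.98 and 0.91) and Rps10 (0.95 and 0.93) followed the median closely in both. Rps19 was at 0.10 with that array and at 0.93 without it. By their kept probe sets, the least correlated genes were Rps18 (-0.43), Rpl41 (-0.37), Rpl39l (-0.28), Rps24 (-0.21), Rps16 (-0.18) and Rpl12 (-0.18). Without that array Rps18 (-0.63), Rpl41 (-0.50), Rpl39l (-0.40) and Rps16 (-0.24) remained below 0, while Rps24 (0.40) and Rpl12 (0.54) did not. For Rps18, Rpl41 and Rps24 these correlations belong to the kept probe set and cannot be read as those of the gene. On that array other probe sets read as low as -1.31 and -0.82 (Rps18), -0.71 and -0.61 (Rpl41) and -1.55 (Rps24). The remaining ones read -0.07 and 0.00 (Rps18), -0.04 (Rpl41) and 0.20 (Rps24).

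Among genes that are no ribosomal protein genes, the 10 closest to the median of the 49 over 18 arrays were Mrpl43 (r = 0.98), Eif3i, Srp14, Cst3, Rnf7, Lsm3, Ccnq, Mrps18c, Ndufa2 and Eif3f (0.95). Their values on TAA day 30 replicate 2 ran from -0.58 for Eif3f to -1.38 for Srp14, so this ranking rests on that array. Over the 17 other arrays the closest were Hsbp1 (0.92), Commd2, Dph3, Nudt22, Timm10b, Dtymk, Ndufs3, Brk1, Banf1 and Mrpl43 (0.89), with Mrpl43, a protein of the mitochondrial ribosome, the one name on both lists.

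Probe sets of the same gene did not always agree. Of the 49 genes, 24 had more than 1 probe set, and in 13 of these all probe sets were below 0 on TAA day 30 replicate 2. In 5 genes (Rpl22, Rpl35, Rps9, Rps10 and Rps24) at least 1 probe set was below -0.2 and another above 0.2. Rps24 was the most divided: the kept probe set read 0.59 and another 0.20, while 4 others read -1.22, -1.30, -1.54 and -1.55. Rps18 read 0.13 on the kept probe set and -0.82, -1.31 and -1.503 on 3 of the others, and Rps9 read -0.43, -0.78 and 0.91. By the manufacturer's suffix, the 34 probe sets ending in _at had a median of -0.09 on this array, the 28 ending in _a_at -0.75, and the 40 ending in _x_at, which may bind related sequences, -0.70. Because ribosomal protein genes have many near-identical pseudogenes and some close paralogues, probes can bind more than 1 transcript, and single-gene values here are uncertain to that extent. Counting any probe set, 36 of the 49 genes had one below -0.2, against 32 by the kept probe set.

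**Figure D3:**
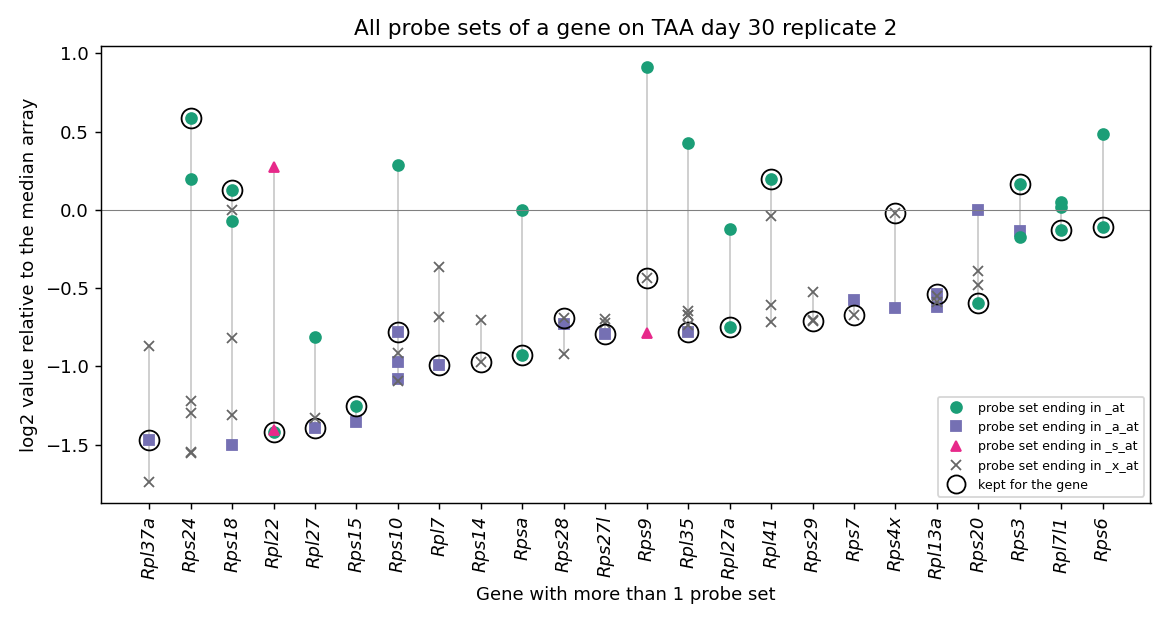
Log2 value relative to the median array on TAA day 30 replicate 2 for every probe set (symbols by suffix) of the 24 genes with more than 1 probe set; a black ring marks the probe set kept for the gene. Rps24 spans from -1.55 to 0.59, while all 3 probe sets of Rpl37a lie at or below -0.87.

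The 4 low probe sets of Rps24 also set 3 other arrays apart. They read between 0.60 and 0.73 on TAA day 7 replicate 2, between 0.39 and 0.67 on DEX day 30 replicate 1 and between 0.47 and 0.60 on DEX day 30 replicate 2, and at most 0.14 on each of the 14 arrays left, without TAA day 30 replicate 2. Rpl7l1, a paralogue of Rpl7 that acts in ribosome assembly, was likewise highest on those 3 arrays on its kept probe set, at 0.57, 0.49 and 0.39. Its other probe sets did not all share this, reading 0.20, -0.06 and -0.04 on one and 0.44, 0.38 and 0.11 on the other. Rpl37 was lowest on them, at -0.32, -0.29 and -0.31. The 3 arrays belong to 2 groups, and in both the replicates left did not share these values: Rpl7l1 measured -0.35 and -0.02 on the other TAA day 7 arrays and -0.21 on the other DEX day 30 array.

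At day 7, DEX retinas had slightly lower ribosomal protein mRNA values than BSS retinas, though no single gene passed the test. Of the 49 genes, 43 were lower with DEX (87.8%, against 51.6% of all genes), with a median difference of -0.10 against -0.00467 for all genes. In 18 of 49 genes (36.7%) all 3 DEX arrays lay below all 3 BSS arrays, where 7.08% of all genes did so, and 1 gene lay above without overlap, where 7.21% of all genes did. The 49 genes vary together over the arrays, so these 18 are not separate observations. By limma with Benjamini-Hochberg adjustment over 18193 genes, 0 of the 49 passed at 0.05, as did 0% of all genes, and 1 had an unadjusted p under 0.05, against 3.91% of all genes. That count was 2 with TAA day 30 replicate 2 left out of the shared fit, against 4.92%. Leaving out each of the 6 arrays in turn gave medians between -0.13 and -0.08.

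The 18 genes came from both subunits: Rpl6, Rpl7, Rpl7a, Rpl10a, Rpl11, Rpl19, Rpl22l1, Rpl27, Rpl35, Rpl37a and Rplp0 of the large, and Rps2, Rps7, Rps10, Rps14, Rps15, Rps19 and Rps26 of the small subunit. Rps19, which is mutated in Diamond-Blackfan anaemia and in dark-skinned mice, measured 0.05, 0.09 and 0.17 with BSS and -0.03, 0.00 and -0.18 with DEX, a difference of -0.18 ± 0.10 (SE). Rpl22l1, the paralogue of Rpl22, measured 0.03, 0.03 and -0.02 with BSS and -0.18, -0.11 and -0.19 with DEX, a difference of -0.17 ± 0.11. Both groups stood clear of each other in these 2 genes, although neither came near the threshold by limma after adjustment. Rpl35 showed the largest difference downward, with 0.08, 0.09 and 0.16 against -0.12, -0.21 and -0.14, or -0.27 ± 0.19. On its 5 other probe sets the difference of the means ran from -0.22 to 0.04.

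The gene with the smallest p went the other way. Rpl39l, a paralogue of Rpl39 known mainly from testis, measured -0.13, -0.27 and -0.43 with BSS and 0.14, -0.05 and 0.26 with DEX, a difference of 0.39 ± 0.16 (limma, adjusted p = 0.99995). Its X-linked parent Rpl39 measured -0.02, -0.09 and -0.15 against -0.19, -0.10 and -0.30, and its groups overlapped. Markers of other cells differed in the same comparison: all 12 microglia and leukocyte markers were higher with DEX (median 0.49, array medians 0.10 to 0.72 with DEX and -0.15 to 0.16 with BSS), 9 of 10 Müller glia markers were higher (median 0.12), and all 10 lens crystallins were lower (median -0.76, array medians -1.37 to 0.01 with DEX and -0.43 to 0.06 with BSS). Lower as well were 12 of 14 pigment epithelium markers (median -0.54) and 8 of 10 rod markers (median -0.06). None of these markers passed the adjusted test here, and their part in the ribosomal protein values was not tested.

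TAA and BSS retinas at day 7 were close in these genes. With TAA 27 of 49 were lower and 22 higher, with a median of -0.02 against -0.000706 for all genes, and the sign of this median turned without TAA day 7 replicate 1 (0.04), without TAA day 7 replicate 2 (0.01), without BSS day 7 replicate 3 (0.00097) and with array weights (0.04). Groups did not overlap in 5 genes that were higher, where 4.35% of all genes were, and in 3 that were lower, where 4.96% were. No gene of the 49 passed the adjusted test, against 0.0055% of all genes, and 2 had an unadjusted p under 0.05, against 3.95%, or 3 with TAA day 30 replicate 2 left out of the shared fit, against 5.03%. Rps6, the S6 kinase substrate, measured -0.12, -0.01 and -0.13 with BSS and 0.18, 0.16 and 0.59 with TAA, a difference of 0.40 ± 0.13 (limma, adjusted p = 0.99995). Rpl4, which lines the exit tunnel of the large subunit, measured 0.02, -0.10 and -0.04 against 0.34, 0.25 and 0.26, or 0.33 ± 0.17. In both genes every TAA array lay above every BSS array. The other probe set of Rps6 did not share this: it read -0.12, -0.01 and 0.09 with BSS and -0.22, 0.26 and 0.01 with TAA, which overlap. In the same comparison 11 of 14 pigment epithelium markers were lower with TAA (median -0.24) and 7 of 10 Müller glia markers higher (median 0.23), and their part was not tested.

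The direct comparison of the drugs at day 7 gave lower values with DEX in 35 of 49 genes (median -0.08 against -0.00198 for all genes). In 16 of 49 (32.7%) all DEX arrays lay below all TAA arrays, where 5.46% of all genes did so, and in 1 they lay above, where 6.23% did. These 16 are not separate observations either. The median was -0.04 without TAA day 7 replicate 3, the array with the highest values. By limma 0 of the 49 passed, against 0.0055% of all genes, and 4 had an unadjusted p under 0.05, all lower, against 6.47%. With TAA day 30 replicate 2 left out of the shared fit that count was 11, against 8.10%. Rps6 measured 0.02, 0.05 and -0.27 with DEX, all below the TAA values given above, a difference of -0.38 ± 0.13 (adjusted p = 0.700), while the means of its other probe set differed by -0.06. Rpl22l1 with TAA measured -0.02, 0.32 and 0.13, and the difference was -0.30 ± 0.11. For Rpl39, with TAA values of 0.08, -0.01 and 0.04, it was -0.23 ± 0.09. The 12 microglia and leukocyte markers were again all higher and the 10 crystallins all lower with DEX, and their part was not tested. The drug comparisons share arrays (each drug was set against the same BSS arrays), so they are not independent of each other.

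**Figure D4:**
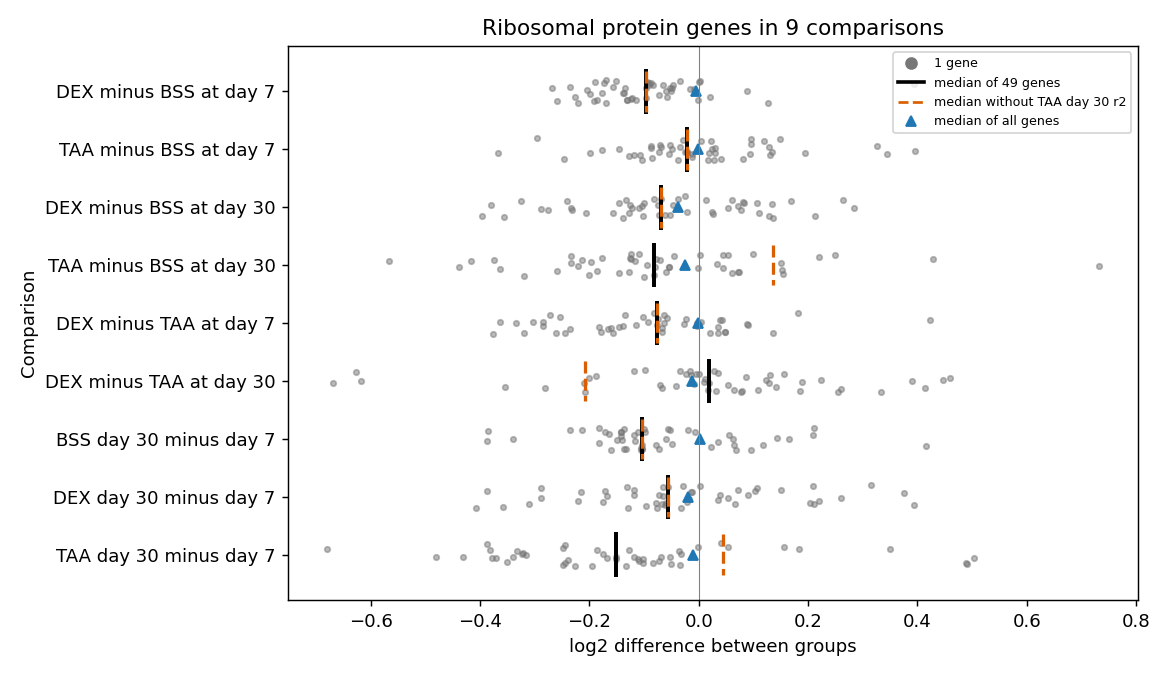
Fitted log2 difference of each of the 49 ribosomal protein genes (grey points) in 9 comparisons between groups of 3 arrays; black bars are the medians of the 49 genes, dashed bars the medians after leaving out TAA day 30 replicate 2, and triangles the medians of all 18193 genes. The dashed bar leaves the black one in the 3 comparisons that hold this array, moving from -0.08 to 0.14, from 0.02 to -0.21 and from -0.15 to 0.05.

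At day 30 the DEX and BSS groups differed less clearly in these genes. With DEX 31 of 49 were lower (63.3%, against 57.9% of all genes), with a median of -0.07 against -0.04, and the median ranged from -0.03 without BSS day 30 replicate 1 to -0.11 without BSS day 30 replicate 2 or DEX day 30 replicate 1. Groups did not overlap in 5 genes that were lower, where 9.94% of all genes were, and in 2 that were higher, where 4.46% were. None of the 49 passed the adjusted test, as did 0% of all genes, and 1 had an unadjusted p under 0.05, against 11.5%, or 6 with TAA day 30 replicate 2 left out of the shared fit, against 14.4%. The gene in the fit of all arrays was the X-linked Rps4x, with 0.11, 0.07 and 0.09 in BSS and -0.34, -0.43 and 0.07 in DEX, a difference of -0.32 ± 0.12 (limma, adjusted p = 0.380). Its DEX values were low on 2 arrays and within reach of the BSS values on the third. Its other probe set read 0.01, -0.07 and -0.01 in BSS and 0.00, 0.03 and -0.09 in DEX, and so did not share the difference. Rps25, needed for some internal ribosome entry sites, showed the same split, with -0.04, 0.26 and 0.00 against -0.57, -0.58 and 0.17, or -0.40 ± 0.20. Rps3, at the mRNA entry of the small subunit, measured 0.18, 0.34 and 0.57 against -0.02, -0.27 and 0.23, or -0.38 ± 0.21, while the means of its other probe sets differed by -0.13 and 0.23. In the same comparison all 12 microglia and leukocyte markers were lower with DEX (median -0.40), as were all 10 lens crystallins (median -1.71), and their part was not tested.

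Without DEX day 30 replicate 3, Rps4x passed the adjusted test at -0.48 (adjusted p = 0.0331). The share of all genes passing in that fit is not given here. The test of whether the DEX difference itself changed from day 7 to day 30 called 0 of the 49 genes, as it did 0% of all genes, with 1 at an unadjusted p under 0.05 against 8.56%, and 4 against 10.8% with TAA day 30 replicate 2 left out. The same test for TAA called 0 of 49 and 0% of all genes, with 4 at an unadjusted p under 0.05 against 6.01%. Its median over the 49 genes turned from -0.09, with 32 of them below 0, to 0.15, with 38 above 0, without TAA day 30 replicate 2, and 8 then had an unadjusted p under 0.05, against 8.75%.

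For TAA against BSS at day 30 the answer turned on the array that stands apart. With all arrays, 33 of 49 genes were lower with TAA and the median was -0.08 against -0.02 for all genes; quantile normalization (0.03) and array weights (0.08) turned its sign. Without TAA day 30 replicate 2, 42 of 49 were higher (85.7%, against 48.6% of all genes), the median was 0.14 against -0.00759, and 12 of 49 had an unadjusted p under 0.05, against 9.46% of all genes. With all arrays that count was 5, against 7.24%. None passed the adjusted test either way, as did 0% of all genes with all arrays. The groups stood clear of each other in 3 genes that were higher with all arrays, where 5.86% of all genes were, and in 3 that were lower, where 7.54% were. With replicates 1 and 3 alone 20 were higher without overlap, where 16.4% of all genes were, and 4 were lower, where 17.2% were.

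Some genes kept their direction with and without that array. Rpl4 measured 0.35, 0.04 and 0.12 with BSS and -0.15, -0.93 and -0.11 with TAA, a difference of -0.57 ± 0.17 (limma, adjusted p = 0.618) and of -0.30 without replicate 2. Rps24 measured -0.45, -0.05 and -0.24 against 0.29, 0.59 and 0.59, a difference of 0.73 ± 0.23 and of 0.68 without it. On 5 other probe sets of Rps24 the means differed by -0.45 to 0.04 with all arrays and by 0.01 to 0.20 without it. Rpl12 measured -0.14, -0.02 and -0.10 against 0.24, 0.46 and 0.32, a difference of 0.43 ± 0.15 and of 0.37 without it. All 3 genes had groups that did not overlap. In the same comparison 11 of 12 microglia and leukocyte markers were lower with TAA (median -0.29, and -0.42 without replicate 2). Of 10 lens crystallins 8 were higher (median 0.27, and 1.24 without it). The array medians of the crystallins were 2.17, -0.28 and 2.82 with BSS and 0.19, 0.07 and 5.09 with TAA. Among the TAA arrays only replicate 3 was thus high. The part of these markers was not tested. By contrast Rpl37a went from -0.42 ± 0.31 with all arrays to 0.18 without replicate 2, Rps15 from -0.15 ± 0.29 to 0.37, and Rplp0 from -0.08 ± 0.21 to 0.29.

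DEX and TAA at day 30 showed the same dependence. With all arrays the median was 0.02, with 20 of 49 genes lower with DEX, and it was -0.02 after quantile normalization and -0.15 with array weights. Without TAA day 30 replicate 2 it was -0.21, with 37 of 49 lower (75.5%, against 53.0% of all genes), and 18 of 49 had an unadjusted p under 0.05, against 16.4% of all genes. With all arrays 7 did, against 16.6%. Without overlap between the groups, 4 genes were lower, where 8.97% of all genes were, and 1 was higher, where 5.78% were. Without that array 27 were lower in this way, where 19.6% of all genes were, and 2 higher, where 10.1% were. No gene of the 49 passed the adjusted test in either fit, against 0% of all genes with all arrays.

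Rpl12 came nearest to the threshold of all members in any comparison. It measured -0.34, -0.45 and -0.19 with DEX at day 30 and 0.24, 0.46 and 0.32 with TAA, a difference of -0.67 ± 0.15 (limma, adjusted p = 0.0768). The groups lay apart by more than the spread within either, and without TAA day 30 replicate 2 the difference was -0.61 (adjusted p = 0.102). Rps19 measured -0.09, -0.18 and -0.04 against 0.34, 0.21 and 0.20, or -0.35 ± 0.10 (adjusted p = 0.116), and -0.37 without that array (adjusted p = 0.126). Rps25 measured 0.41, -0.04 and 0.51 with TAA beside the DEX values given above, or -0.62 ± 0.20 (adjusted p = 0.146), and -0.78 without that array (adjusted p = 0.0965). Without DEX day 30 replicate 3, Rpl12 (adjusted p = 0.0215) and Rps25 (adjusted p = 0.0154) passed. The share of all genes passing without it is not given here. With DEX 8 of 10 lens crystallins were lower here (median -2.27, and -3.06 without TAA day 30 replicate 2) and 7 of 9 ganglion cell markers higher (median 0.29, and 0.23 without it), and their part was not tested.

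In the control retinas most of the 49 genes had a lower mean at the later day, but the array medians overlapped. These medians were 0.051, 0.044 and 0.066 at day 7 and 0.067, -0.102 and -0.008 at day 30. In BSS 36 of 49 genes were lower at day 30 (73.5%, against 49.4% of all genes), with a median of -0.10 against 0.00250, and of -0.04 without BSS day 30 replicate 2. None of the 49 passed, against 0.0275% of all genes, and 0 had an unadjusted p under 0.05, against 7.81%, or 1 with TAA day 30 replicate 2 left out of the shared fit, against 10.3%. Groups did not overlap in 5 genes that were lower, where 12.2% of all genes were, and in 4 that were higher, where 10.6% were. Rps3 measured 0.02, -0.10 and -0.08 at day 7 and, at day 30, the higher values given above, a difference of 0.42 ± 0.21 (limma, adjusted p = 0.641). Its other probe sets did not share the higher values: one went from -0.03, 0.21 and 0.27 to 0.09, -0.25 and -0.40, and the means of the other differed by -0.03. Rps20, mutated in another dark-skinned mouse, measured -0.17, 0.16 and 0.60 against -0.22, 0.04 and -0.26, or -0.34 ± 0.19. The p53-inducible Rps27l measured 0.06, 0.30 and 0.33 against 0.04, -0.34 and -0.17, or -0.38 ± 0.22. The other probe sets of Rps20 (-0.53 to -0.16) and of Rps27l (-0.27 and -0.19) differed in the same direction. In the same comparison all 10 lens crystallins were higher at day 30 (median 1.39). Their array medians ran from -0.43 to 0.06 at day 7 and from -0.28 to 2.82 at day 30. Higher as well were 10 of 12 microglia and leukocyte markers (median 0.12) and 8 of 10 Müller glia markers (median 0.11). Of 9 ganglion cell markers 8 were lower (median -0.14). The part of these markers was not tested.

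The comparison of the days in DEX retinas was the one in which many genes of the retina passed. There 2.63% of all genes passed (108 higher and 371 lower at day 30). Of the 49 genes 0 passed, which is near that share for so few genes. Of the 49, 31 were lower at day 30, with a median of -0.06 against -0.02 for all genes, -0.02 without DEX day 30 replicate 2, and 0.02 after quantile normalization, which turns the sign. An unadjusted p under 0.05 was found for 3 of 49 (6.12%), against 20.1% of all genes, and for 8 with TAA day 30 replicate 2 left out of the shared fit, against 23.5%. Groups did not overlap in 7 that were lower, where 18.9% of all genes were, and in 5 that were higher, where 7.82% were. Rpl39 measured -0.19, -0.10 and -0.30 at day 7 and 0.04, 0.10 and 0.04 at day 30, a difference of 0.26 ± 0.09 (limma, adjusted p = 0.118). Rpl12 measured 0.09, 0.18 and -0.03 and then the lower values above, or -0.41 ± 0.15, and Rpl13a, which also serves in the GAIT complex that silences inflammatory mRNAs, -0.17, -0.14 and -0.26 and then 0.20, 0.32 and 0.10, or 0.39 ± 0.16. Another probe set of Rpl13a went the other way, from 0.21, 0.03 and 0.00 to -0.14, -0.28 and -0.25, and the means of the remaining ones differed by 0.16 and -0.08. These genes, all of the large subunit, differed in both directions. In the same comparison all 12 microglia and leukocyte markers were lower at day 30 (median -0.64, 1 passing) and all 10 lens crystallins higher (median 0.45), and their part was not tested. With TAA day 30 replicate 2 left out of the shared fit, which is in neither group, Rpl7 passed at 0.38 (adjusted p = 0.0380). The means of its other probe sets differed by 0.13 and 0.09. The share of all genes passing in that fit is not given here.

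In TAA retinas 41 of 49 genes were lower at day 30 with all arrays (median -0.15 against -0.00957 for all genes), and 33 were higher without TAA day 30 replicate 2 (67.3%, against 48.8% of all genes; median 0.05). Quantile normalization and array weights brought the median of all arrays to -0.03 each. None of the 49 passed, as did 0% of all genes, and 6 had an unadjusted p under 0.05 with all arrays, against 12.3%, and 6 without that array, against 9.04%. All arrays of one day lay below those of the other in 3 genes that were lower, where 6.89% of all genes were, and in 1 that was higher, where 5.68% were. Without that array there were 3 that were lower, where 11.9% of all genes were, and 6 that were higher, where 11.1% were. Rpl4 differed by -0.68 ± 0.17 (limma, adjusted p = 0.181) and by -0.41 without it, and Rps6, with 0.01, -0.11 and -0.12 at day 30, by -0.38 ± 0.13 and -0.36 without it. The other probe set of Rps6 went the other way, to 0.02, 0.48 and 0.24 at day 30, with means that differed by 0.23, and by 0.11 without it. Rpl41, the shortest ribosomal protein, measured -0.44, -0.30 and -0.26 at day 7 and 0.03, 0.20 and 0.28 at day 30, or 0.50 ± 0.20, and 0.49 without it. On its 3 other probe sets the means differed by -0.11 to 0.23 with all arrays and by 0.20 to 0.28 without it. In Rps6 and Rpl4, on the kept probe sets, all 3 TAA arrays of day 7 lay above all 3 of day 30. Among marker genes 8 of 10 lens crystallins were higher at day 30 (median 2.06, and 2.89 without TAA day 30 replicate 2). Their array medians were 0.85, -1.53 and -0.01 at day 7 and 0.19, 0.07 and 5.09 at day 30. At day 30 only replicate 3 was thus high. Of 9 ganglion cell markers 8 were lower at day 30 (median -0.37, and -0.38 without TAA day 30 replicate 2). The part of these markers was not tested.

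Paralogues and their parent genes can be set side by side on TAA day 30 replicate 2. There Rpl22 read -1.42 and Rpl22l1 -0.05, Rpl7 read -0.99 and Rpl7l1 -0.13, and Rps4x read -0.02 and Rps4l -0.75, although the other probe set of Rps4x read -0.63. Rps27 and Rps27l were nearer to each other there, at -0.74 and -0.79. Rpl3l, found mainly in heart and skeletal muscle, lay between -0.17 and 0.15 on all arrays but DEX day 7 replicate 3, where it read -0.58. Since the values are centred, they do not show which paralogue is the more abundant.

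The other genes of the translation machinery were followed as lists. On TAA day 30 replicate 2 the median was -0.38 for the 18 measured genes with other TOP mRNAs, -0.27 for 30 initiation factors, -0.26 for 40 ribosome biogenesis genes, -0.37 for 76 mitochondrial ribosomal proteins and -0.39 for 81 genes of the respiratory chain and ATP synthase, each the lowest of the 18 arrays. The 9 elongation factors, many of them TOP mRNAs too, had a median of 0.00388 there, within the range of the other arrays, and the 19 genes of growth signalling to the ribosome -0.04. Eef1a1, which brings aminoacyl-tRNA to the ribosome, read -0.14 and Eef2, which moves the ribosome along, 0.00, while Fau, whose product includes the small subunit protein Rps30, read -0.78. The low values of that array were therefore not shared by all genes of translation.

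**Figure D5:**
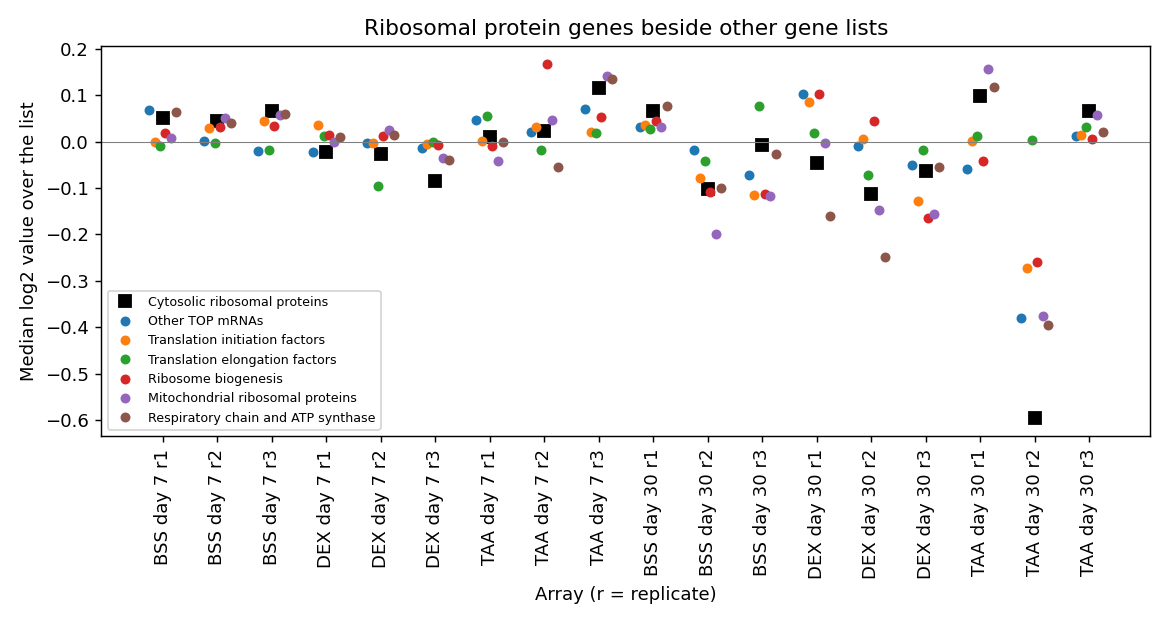
Median log2 value relative to the median array over the 49 ribosomal protein genes (black squares) and over 6 other gene lists (coloured points) on each of the 18 arrays. On TAA day 30 replicate 2 the ribosomal protein genes are lowest at -0.60, the respiratory chain is at -0.39 and the elongation factors are near 0.

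At day 7, DEX against BSS, 55 of 76 mitochondrial ribosomal proteins were lower (median -0.08) and 57 of 81 respiratory chain genes (median -0.05), with 17 of 30 initiation factors (median -0.05), 11 of 18 other TOP mRNAs (median -0.02) and 5 of 9 elongation factors (median -0.02). At day 30, TAA against BSS, the median of the mitochondrial ribosomal proteins was 0.02 with all arrays and 0.20 without replicate 2, and that of the respiratory chain -0.09 and 0.09. Over the 9 comparisons 2 genes of these lists passed the adjusted test, both in DEX between the days. In that comparison 2.63% of all genes passed, so the 2 cannot be read as particular to these lists. Cnbp, an RNA-binding protein with a TOP mRNA, measured -0.31, -0.07 and -0.66 at day 7 and 0.31, 0.85 and 0.27 at day 30, and rose by 0.82 ± 0.20 (limma, adjusted p = 0.0409). Mrps27, of the mitochondrial ribosome, measured 0.30, 0.24 and 0.00 and then -0.31, -0.41 and -0.28, and fell by 0.51 ± 0.11 (adjusted p = 0.0281). No growth signalling, initiation, elongation or biogenesis gene passed in any of the 9.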

How the data were processed

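Retina RNA from 18 samples was amplified in 2 cycles and hybridised to Affymetrix arrays, per the labels' protocols. The authors deposited log2 values made with RMA, per the submitters' processing notes (version, settings and chip files not given in the sources used here). The log2 scale and the direction, higher for more RNA, follow RMA's convention. Each probe set's median over the arrays was 0 in the deposited table, so the authors' values had been centred and no filter on level was possible. Of 45101 probe sets, 64 were controls, 34945 named 1 gene in the platform annotation (34741 with a gene ID in the RefSeq table), 932 named several and 9160 are unnamed here. One probe set per gene, that of widest interquartile range over the arrays, gave 18193 genes.

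Differences were tested gene by gene in limma 3.58.1 (R 4.3.3), 1 coefficient per group over all 18 arrays (12 residual and 5.21 prior degrees of freedom, median residual SD 0.179), with empirical Bayes moderation and Benjamini-Hochberg adjustment over all genes at 0.05. Differences are log2 with the moderated SE. Each p-value sets a difference against a spread between replicates that is estimated over all 6 groups. The 3 biological replicates a group limit the precision. The scripts were tested on simulated data. The members and lists were chosen with earlier results of these data known. Genes were named by rule: members past the threshold, the 3 of smallest p in each comparison, the 6 widest, narrowest and least correlated, members fixed by role, the 10 non-members most like the median, Fau, and list genes that passed; Eef1a1 and Eef2 are named as the leading elongation factors, and Rpl11, Rpl14, Rpl19, Rpl35, Rps3a1, Rps9 and Rps10 and the full list of 18 genes at day 7 were named after their values were seen. Alternatives covered normalization, probe set choice, array weights, the replicate number as a block, and each array left out.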

Additional observations from a re-analysis of the deposited data

Results flagged for a closer look

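Probe sets outside the comparisons carried the low signal of TAA day 30 replicate 2 as well. The 110 probe sets that name a ribosomal protein gene together with other genes had a median of -0.53 on that array, with 90 of 110 below 0, while their median on the 6 BSS arrays lay between -0.09 and 0.06. The probe sets of the 49 genes that were not kept had a median of -0.67 there, against -0.11 to 0.08 on the BSS arrays. Both were singled out because a signal appeared in data not used for the comparisons, beyond the range of the control arrays.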

How the results depend on the processing

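Array weights moved the count of ribosomal protein genes passing from 0 to 1 for TAA minus BSS at day 7 (Rps6) and to 2 for DEX minus TAA at day 7. They moved it to 3 for DEX minus BSS and to 6 for DEX minus TAA at day 30. The count moved to 8 between the days in DEX, to 1 between the days in TAA (Rps6) and to 2 for the change of the DEX difference. The shares of all genes passing in these fits are not given here, so the counts cannot be read as particular to these genes. At day 7 the weighted medians were 0.0433 for TAA minus BSS and -0.140 for DEX minus TAA. The weight of TAA day 30 replicate 2 was 0.195. The weights of TAA day 7 replicates 1 to 3 were 0.528, 0.261 and 4.15, so replicate 3, where Rps6 read 0.59, weighed most in that group. Quantile normalization gave -0.139 for DEX minus BSS at day 7 and 0.0163 between the days in DEX, the genes in the upper part by interquartile range -0.147 for DEX minus BSS at day 7, and the probe sets naming several genes -0.00684 between the days in DEX. Leaving out 1 array at a time gave medians from -0.126 to -0.0795 (DEX minus BSS at day 7), from -0.0576 to 0.0393 (TAA minus BSS at day 7) and from -0.0745 to -0.0176 (DEX between the days), and counts from 0 to 1 for DEX minus BSS at day 30 and between the days in DEX and from 0 to 2 for DEX minus TAA at day 30. The replicate number as a block left 0 genes passing in all comparisons but DEX minus TAA at day 30, where 1 passed (Rpl12, adjusted p = 0.0469). The shares of all genes passing with the block, and without 1 array, are not given here either. Whether the replicate numbers pair the samples could not be settled from how arrays deviate together. Over 45 pairs of arrays with the same number the median correlation of their deviations was 0.039, with 16 pairs over 0.1. Over 90 pairs with different numbers it was -0.018, with 19 pairs over 0.1. The cause of these shifts was not tested. Centring each array, averaging all probe sets, keeping probe sets ending in _at, and leaving out the 6 paralogues moved no median by more than the spread between replicates and left each count of passing genes at 0. The alternatives with other member sets, and those without TAA day 30 replicate 2 where it is in neither group, were chosen after seeing the data. Centred values give no signal over background, so genes near it could not be told from the rest.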
